A study of Mus musculus with 40 samples.

Results

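Inflammasomes are protein complexes that form in the cytosol of macrophages when a sensor protein meets a microbial product or a sign of cell damage. The sensor recruits the adaptor ASC, encoded by Pycard, which gathers caspase-1. Active caspase-1 cleaves the precursors of the cytokines interleukin-1 beta and interleukin-18, and it cleaves gasdermin D, whose released fragment opens pores in the plasma membrane and kills the cell by pyroptosis. In mice the product of Casp4, also called caspase-11, binds cytosolic lipopolysaccharide (LPS) directly and cleaves gasdermin D without a separate sensor. LPS outside the cell acts through its surface receptor to raise the mRNAs of several of these genes, a step known as priming.

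The mRNA levels of 10 genes of this pathway were followed in bone marrow-derived macrophages (BMDMs), which are grown in culture from bone marrow cells. The genes are the sensors Nlrp3, Nlrc4, Naip2, Naip5 and Aim2, the adaptor Pycard, the proteases Casp1 and Casp4, the pore former Gsdmd, and Nek7, whose product binds NLRP3 and is needed for its activation. They were chosen by name as genes of the pathway, and each of the 10 had 1 row among the 27179 genes of the deposited table. BMDMs came from 4 WT and 4 Cpeb4-/- male mice, whose Cpeb4 gene is deleted in the whole body, and all 8 mice had a mixed C57BL/6J and 129 background. Cells of every mouse were left untreated or received 10 ng/ml LPS from E. coli for 1, 3, 6 or 9 hr, which gave 40 libraries, 4 for each genotype and time. CPEB4, the protein missing in Cpeb4-/- cells, binds cytoplasmic polyadenylation elements (CPEs) in 3′-untranslated regions of mRNAs and affects their poly(A) tails and stability. The comparisons ask how the pathway responded to LPS, and whether it differed between the genotypes.

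The age of the mice is not in the sample labels. Each of the 2 sequencing batches held 2 mice of each genotype, but none of the 6 cages held both genotypes, so cage and genotype cannot be told apart. Mice of 129 strains are known to carry a defective Casp4 gene, and which allele of Casp4, Nlrc4 or the other genes each of these mixed-background mice carried is not given in the sources used here.

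Values are rlog values, which are read counts on a log2 scale corrected for library size and shrunken where counts are low, so log2 differences understate the change of weakly expressed genes. The table holds no counts, and the depth behind each value is therefore unknown. Differences were tested with limma over all genes whose mean rlog value was at least log2 of 5, all 10 genes included, and a gene was called at a Benjamini-Hochberg adjusted p under 0.05. The rlog value of Cpeb4 itself was lower in Cpeb4-/- at 6 hr, by −1.27 (SE 0.19, adjusted p = 0.0011), and the genotypes overlapped at the other 4 times. This value sums the whole gene and cannot tell the deleted allele from the intact one, so at those times genotypes are as labelled. The 7 macrophage markers lay between 8.89 and 18.9 in all libraries, and no marker of other cells exceeded 7.70. At least 1 library reached log2 of 5 for 5 of 5 dendritic cell markers (highest 7.06), 4 of 8 neutrophil and granulocyte precursor markers (7.70), 3 of 4 stromal markers (4.62), 1 of 4 erythroid markers (4.73), 1 of 5 T and NK cell markers (3.58) and 0 of 4 B cell markers. Some libraries set how many genes were called over the whole table. The count at 9 hr was 1029 with all mice and 4575 without Cpeb4-/- mouse 2, that at 1 hr was 251 and 2440 without WT mouse 69, and that at 3 hr was 481 and 2584 without WT mouse 88.

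Casp4 was the member that differed most between the genotypes. Its neighbourhood and that of Nlrp3, the other gene that rose strongly within 1 hr of LPS, are shown here because both hold sequences of the kind studied in LPS-treated macrophages. Casp4 lies on chromosome 9 of GRCm38 (mm10) from 5308849 to 5336791, next to Casp1 at 5298517 to 5307281. Nlrp3 lies on chromosome 11 from 59541569 to 59566955. The promoter windows, from 250 bases before to 50 after a gene start, are those of RefSeq on GRCm38.p6 and are printed on the gene's strand, with matches to the kappaB motif, bound by NF-kappaB, in capitals:
Casp4 promoter, chr9:5308599-5308898 (+): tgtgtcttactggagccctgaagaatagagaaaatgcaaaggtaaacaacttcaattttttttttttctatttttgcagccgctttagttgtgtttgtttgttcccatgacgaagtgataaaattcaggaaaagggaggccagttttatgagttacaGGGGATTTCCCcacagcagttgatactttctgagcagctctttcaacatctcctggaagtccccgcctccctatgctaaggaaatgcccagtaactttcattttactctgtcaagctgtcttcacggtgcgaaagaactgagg
Nlrp3 promoter, chr11:59541319-59541618 (+): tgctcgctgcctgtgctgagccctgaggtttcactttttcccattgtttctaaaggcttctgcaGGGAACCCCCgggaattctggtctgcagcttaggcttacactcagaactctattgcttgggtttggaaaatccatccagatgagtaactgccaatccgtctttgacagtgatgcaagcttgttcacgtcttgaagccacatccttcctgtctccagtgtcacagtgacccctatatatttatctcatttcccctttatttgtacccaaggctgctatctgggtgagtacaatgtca

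The kappaB match of Casp4 began 93 bases before the gene start and held 3 overlapping matches on the 2 strands, and that of Nlrp3 began 186 bases before the start on the other strand. Promoter sequences were at hand for 9 of the 10 genes, with 11 starts, and 4 of these starts had a kappaB match (both starts of Casp4, 1 of the 2 of Nlrp3, and that of Naip5), against 4.51% of all 32851 promoters in the table. The windows of the 2 Casp4 starts overlap and hold the same site, and counted by gene 3 of the 9 had a match. The motif AGGAAGT of PU.1, a transcription factor of the myeloid lineage, was found on either strand in 5 starts (Aim2, Pycard, Naip2, Naip5 and Nlrc4), against 9.35% of all promoters. Neither the core of an interferon-stimulated response element, searched as GAAA, any 2 bases and GAAA again (3.44% of all promoters), nor the AP-1 motif TGANTCA (7.81%) was found in the 11 windows. These matches describe the letters of the windows, and binding was not measured.

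In the 3′-untranslated region, the pentamer ATTTA marks AU-rich elements, which attract proteins that destabilize mRNAs such as TTP, and CPEs are the sites of CPEB proteins. Casp4 was the one gene of the 10 whose region held the longer element TTATTTATT, which was found in 8.05% of 11970 expressed genes with an annotated region. In its region of 254 bases this element overlapped the single CPE, and Nlrp3 held 5 pentamers and 4 CPEs in 693 bases. The 4 sites given here carry the pentamer or the CPE in capitals, with their GRCm38 position, and are read from GENCODE transcripts:
Casp4 ATTTA, chr9:5336753-5336757 (+): gaaatttgttttATTTAtttgtgtacata
Casp4 CPE, chr9:5336749-5336754 (+): aagagaaatttgTTTTATttatttgtgtac
Nlrp3 ATTTA, chr11:59566851-59566855 (+): acccatttttgtATTTAttgtatgtttgt
Nlrp3 CPE, chr11:59566779-59566784 (+): tacattgtttgtTTTTATtttttaatagtt

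Of the 10 genes, 6 had at least 1 ATTTA pentamer, against 69.3% of the 11970 genes, and 7 had at least 1 CPE, against 77.4%. The counts followed length in part. Nek7, with 4125 bases, held 7 pentamers and 20 CPEs, whereas Casp1 with 88 bases, Gsdmd with 169 and Naip2 with 296 held neither element. Pycard held 3 of each in 3004 bases, Nlrc4 held 2 of each in 1404, Aim2 held 1 pentamer and 3 CPEs in 1022, and Naip5 held 1 CPE and no pentamer in 868. Each region was the longest of the gene's GENCODE transcripts, and some ran past the RefSeq gene end. The CPEs of Nlrc4, at 74425733 and 74425690, lay beyond its RefSeq end at 74426255. A pentamer (127990650) and a CPE (127990288) of Pycard lay beyond 127991373, and some sites of Nek7 lay beyond its end as well.

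In untreated WT BMDMs the genes spanned a wide range of levels. On an rlog scale per kilobase of annotated exon, Casp1 stood highest at 11.2 and Gsdmd followed at 11.0, then Nlrp3 at 9.84, Pycard at 9.42, Casp4 at 9.11, Aim2 at 8.85 and Nek7 at 8.64. The flagellin and secretion-system sensors stood lowest, with Naip2 at 7.69, Naip5 at 7.47 and Nlrc4 at 6.06. Exon bases were those of all GENCODE protein-coding transcripts of a gene. For Pycard they came to 3800, more than its whole RefSeq gene from 127991373 to 127993867, so its place in this order is uncertain. Naip2 and Naip5 are related genes in 1 cluster on chromosome 13, so reads shared between related genes may make their values uncertain. Casp1 and Casp4 are adjacent, and whether the counting used strand is not given in the sources used here.

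**Figure D1:**
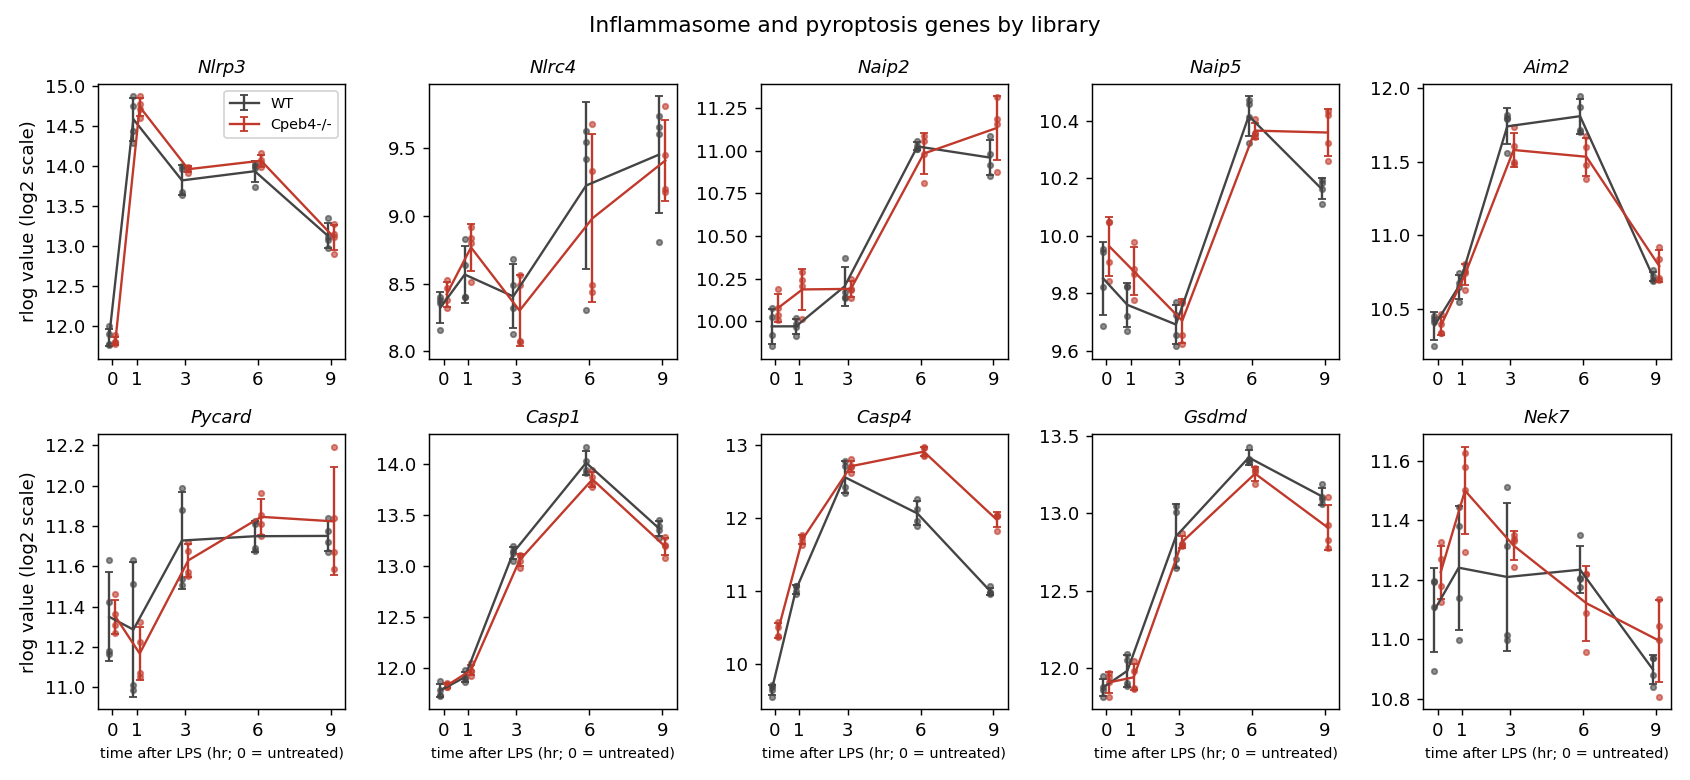
rlog values (log2 scale) of the 10 genes against time after LPS in hours, with untreated cells at 0. Points are libraries, lines join the group means and bars are SD (n = 4 mice); each panel has its own vertical scale. Casp4 of Cpeb4-/- lies above WT at every time but 3 hr, where the groups overlap, and the ranges of the other 9 genes overlap between genotypes except for Aim2 and Gsdmd at 6 hr and Naip5 at 9 hr.

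LPS raised most of the pathway in WT BMDMs. At 1 hr only Nlrp3, Casp4 and Aim2 were called, and by 6 hr 9 of the 10 genes were higher than in untreated cells, all but Nek7. Nlrp3 peaked at 1 hr, Casp4 at 3 hr, and Casp1 with Gsdmd at 6 hr, and these peaks did not overlap the next highest time. The same was seen in Cpeb4-/- BMDMs, except that Casp4 was highest at 6 hr and that Casp1 and Nek7 were also called at 1 hr.

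In WT, 3 of the 10 genes were higher at 1 hr and none was lower, beside 17.3% and 16.6% of all genes tested. At 3 hr 7 were higher and 1 lower (32.5% and 35.3% of all genes), at 6 hr 9 and 0 (38.7% and 39.2%), and at 9 hr 9 and 0 (35.9% and 35.6%). In Cpeb4-/- the counts were 5 higher and 0 lower at 1 hr (23.8% and 20% of all genes), 6 and 1 at 3 hr (34.4% and 36.9%), 9 and 0 at 6 hr (39% and 40.1%), and 9 and 1 at 9 hr (36.4% and 36.4%). The median change of the 10 genes at 6 hr was 1.24 on the log2 scale in WT and 1.03 in Cpeb4-/-, against −0.02 over all genes in both. All times of a genotype were compared with the same 4 untreated libraries. Some markers of other cells rose with LPS as well: all 3 dendritic cell markers tested were higher at 1 and 3 hr in both genotypes, and 2 of 3 neutrophil markers tested were at 6 and 9 hr. The summed dendritic cell markers lay between 5.43 and 6.25 in untreated WT and between 7.29 and 7.49 at 3 hr, on the log2 scale (5.28 to 5.66 and 7.28 to 7.52 in Cpeb4-/-). The summed neutrophil markers lay between 6.02 and 6.91 in untreated WT and between 7.51 and 8.01 at 6 hr (6.28 to 6.54 and 7.58 to 7.91 in Cpeb4-/-), and the defining marker Ly6g stayed at or below −2.27. Their part in the changes of the 10 genes was not tested.

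**Figure D2:**
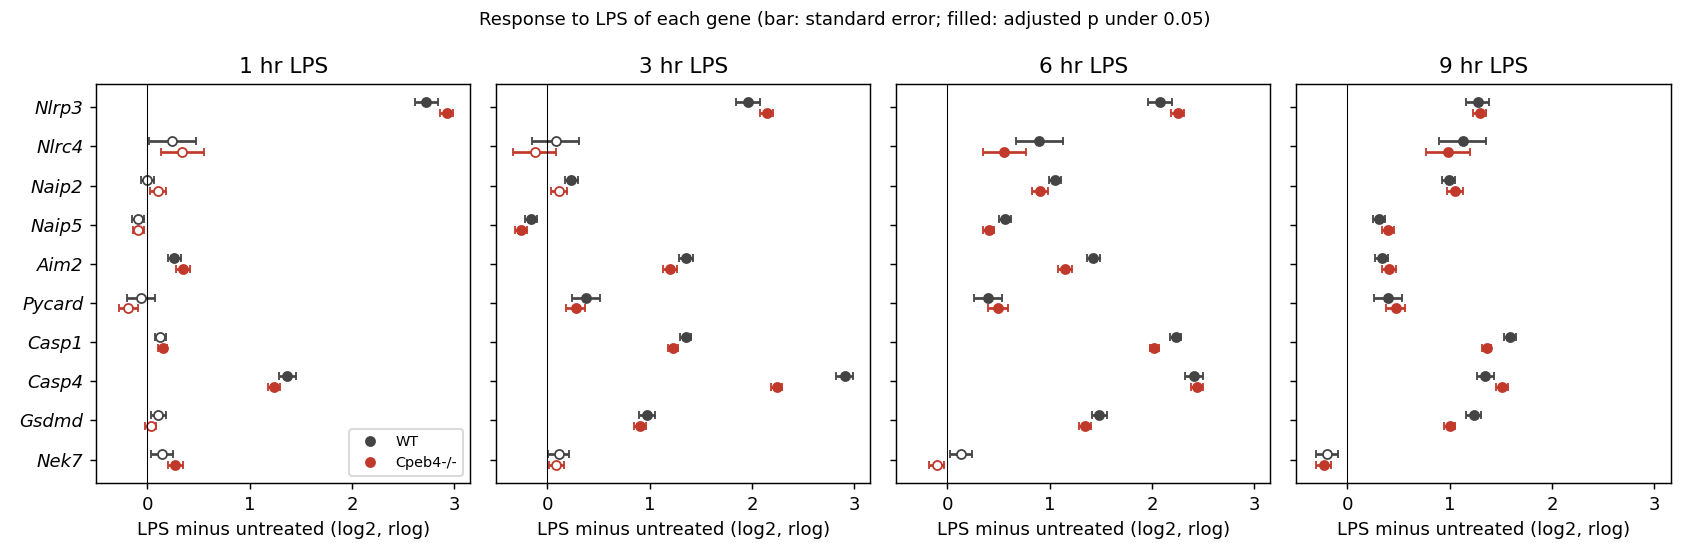
Change of rlog value (log2 scale) from untreated cells at 1, 3, 6 and 9 hr of LPS in WT and Cpeb4-/- BMDMs. Points are limma estimates from 4 mice at each time, bars are standard errors and filled points have an adjusted p under 0.05. Nlrp3 and Casp4 lead at 1 hr, Casp1 and Gsdmd join them later, and Nek7 stays within 0.27 of untreated cells.

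Among the sensors, Nlrp3 encodes the receptor that responds to potassium loss, crystals and pore-forming toxins. It rose first and most. In untreated WT cells its rlog values in the 4 mice were 12.00, 11.90, 11.77 and 11.77, and at 1 hr they were 14.75, 14.88, 14.29 and 14.44. All 4 mice rose, by 2.73 on average (SE 0.12, adjusted p = 8.3e-14), or 6.63-fold on the rlog scale. WT cells later stood 1.96 (3 hr), 2.08 (6 hr) and 1.27 (9 hr) above untreated cells, and the changes were 2.93, 2.15, 2.25 and 1.29 at the 4 times in Cpeb4-/-. The levels at 3 and 6 hr overlapped in both genotypes, and those at 9 hr were still above every untreated library.

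Aim2, the sensor of cytosolic DNA, rose by 0.27 at 1 hr in WT (SE 0.07, adjusted p = 0.0035), stood 1.36 and 1.43 above untreated cells at 3 and 6 hr, and had fallen back to 0.34 at 9 hr. Its levels at 3 and 6 hr overlapped, and those at 9 hr overlapped the 1 hr values. In Cpeb4-/- the changes were 0.35, 1.20, 1.15 and 0.41.

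The NAIP proteins bind bacterial flagellin (NAIP5) or secretion-system rods (NAIP2) and then engage NLRC4. These sensors rose mostly at 6 and 9 hr. Naip2 was already higher at 3 hr in WT, by 0.23 (SE 0.06, adjusted p = 0.0020). In Cpeb4-/- its change of 0.11 at 3 hr was not called (adjusted p = 0.21). Naip2 changed by 1.05 at 6 hr (SE 0.06) and 0.99 at 9 hr in WT, and by 0.90 and 1.05 in Cpeb4-/-. Naip5 first fell by 0.16 at 3 hr in WT (adjusted p = 0.022) and by 0.26 in Cpeb4-/- (adjusted p = 0.00033), and then stood 0.56 and 0.40 above untreated cells at 6 hr. The fall of Naip5 in WT missed the threshold without WT mouse 25 (adjusted p = 0.13), mouse 69 (0.22) or mouse 88 (0.085).

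Nlrc4 varied widely between mice of the same genotype. At 6 hr its values in WT were 9.54, 9.42 and 9.62 in mice 25, 87 and 88, and 8.31 in mouse 69. In Cpeb4-/- they were 9.33 and 9.67 in mice 2 and 55, and 8.49 and 8.43 in mice 3 and 62. These 3 low libraries, from 1 WT and 2 Cpeb4-/- mice, lay within the range of untreated cells (8.16 to 8.53), and the other 5 lay above it. Mice were not grouped by these values in any test.

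Mice 2 and 3 share a cage, as do mice 87 and 88. Within Cpeb4-/-, mice 3 and 62 were in batch 1 and mice 2 and 55 in batch 2. In WT, mouse 69 was in batch 2, as was mouse 87, and mice 25 and 88 were in batch 1. The part of the batch in these levels was not tested beyond the values within batches given here. At 9 hr mice 69, 3 and 62 were at 8.81, 9.19 and 9.17, and the other 5 lay between 9.45 and 9.81. In untreated cells mice 69, 3 and 62 were at 8.38, 8.53 and 8.47, and the other 5 lay between 8.16 and 8.40. The mean rise of Nlrc4 was 0.90 in WT at 6 hr (SE 0.23, adjusted p = 0.0014) and 0.56 in Cpeb4-/- (SE 0.21, adjusted p = 0.021), and the latter missed the threshold without mouse 2 (0.43, adjusted p = 0.13) or mouse 55 (0.29, adjusted p = 0.18). Within batch 1 Nlrc4 of Cpeb4-/- stood −1.12 from WT at 6 hr, and within batch 2 it stood 0.64 above.

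**Figure D3:**
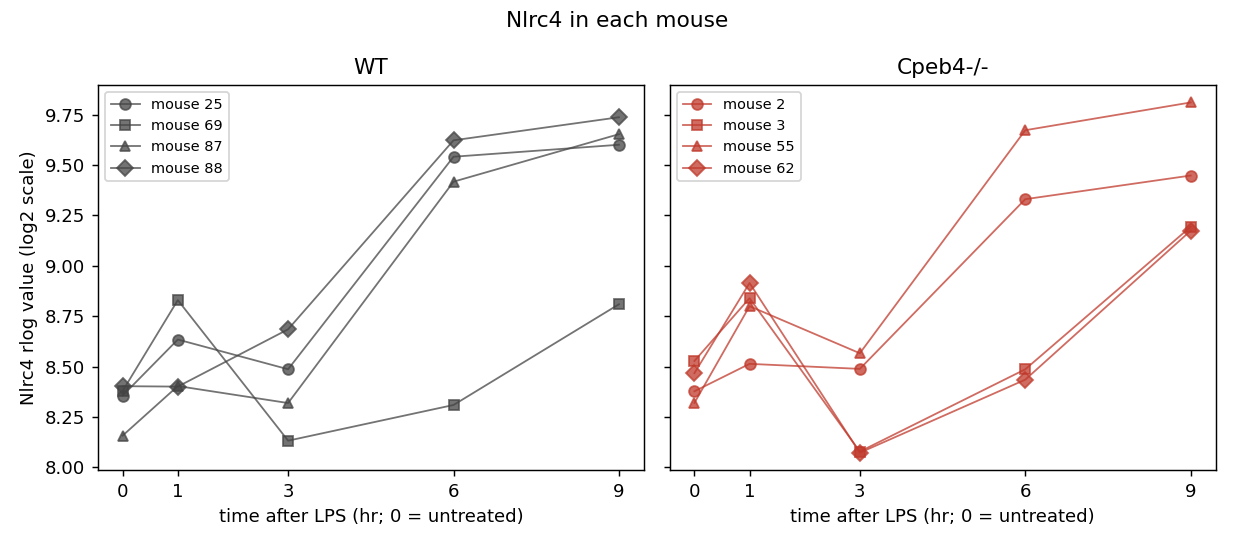
Nlrc4 rlog value (log2 scale) against time after LPS in hours, 1 line per mouse, WT on the left and Cpeb4-/- on the right. WT mouse 69 and Cpeb4-/- mice 3 and 62 lie at 8.31 to 8.49 at 6 hr, below the other 5 mice at 9.33 to 9.67, whereas all 8 mice lie between 8.16 and 8.53 untreated.

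The adaptor Pycard moved little. It stood 0.38 to 0.40 above untreated cells from 3 to 9 hr in WT and 0.28 to 0.49 in Cpeb4-/-, with adjusted p-values of 0.011 to 0.019 in WT. Untreated WT libraries ranged from 11.17 to 11.63 and overlapped those at 3 hr (11.51 to 11.99). Quantile normalization of the libraries before the fit shifted the median of all genes by up to 0.12, upward (Cpeb4-/- at 6 hr). Pycard moved downward instead, to −0.05 at 6 hr in WT and to −0.01 at 3 hr in Cpeb4-/-. Pycard was then not called at 3, 6 or 9 hr in either genotype, and it was called lower at 1 hr in Cpeb4-/- (−0.37, adjusted p = 0.0045). The size and calls of its change thus depend on the scaling, as does its direction at 6 hr in WT and at 3 hr in Cpeb4-/-. In the other comparisons from 3 to 9 hr it stayed higher under this scaling, by 0.06 to 0.19. The call in WT was also lost at 3 hr without mouse 25 (adjusted p = 0.16) and at 9 hr without mouse 25 (0.063) or 69 (0.067), and that in Cpeb4-/- at 3 hr without mouse 62 (0.080).

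The proteases and the pore former changed far more. Casp1 rose by 1.35 at 3 hr, 2.23 at 6 hr (SE 0.06, adjusted p = 1.6e-18; 4.69-fold) and 1.59 after 9 hr in WT. Its 4 untreated WT values were 11.73, 11.79, 11.74 and 11.87, and its 6 hr values were 13.91, 14.03, 13.94 and 14.17. The groups were far apart in every mouse. At 1 hr Casp1 changed by 0.13 in WT (adjusted p = 0.081, and 0.032 with the mouse as a block) and by 0.15 in Cpeb4-/- (adjusted p = 0.0099, and 0.051 without mouse 3), but quantile normalization turned these changes to −0.07 and −0.06.

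Gsdmd, the substrate through which caspase-1 and caspase-11 kill the cell, followed Casp1 closely, with changes of 0.98, 1.49 (SE 0.07; 2.80-fold) and 1.24 at 3, 6 and 9 hr in WT and 0.91, 1.35 and 1.00 in Cpeb4-/-. Over the 40 libraries, which share mice and the LPS course, Casp1 and Gsdmd had a Pearson r of 0.985. The mean levels of both were in the order 6, 9, 3, 1 hr and untreated in each genotype.

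Casp4 rose faster. At 1 hr it was already 1.37 above untreated cells in WT (SE 0.09, adjusted p = 4.6e-11), then 2.91 at 3 hr (7.49-fold), 2.41 at 6 hr and 1.35 by 9 hr. Its levels at 1 and 9 hr overlapped in WT, whereas the other neighbouring levels did not. In Cpeb4-/- the changes were 1.24, 2.24, 2.44 and 1.51, and no neighbouring levels overlapped.

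Nek7 showed no called change in WT, at 0.14, 0.11, 0.14 and −0.20, and the last was called without mouse 87 (−0.28, adjusted p = 0.023). In Cpeb4-/- it changed by 0.27 at 1 hr (adjusted p = 0.0058, 0.064 without mouse 55) and by −0.23 at 9 hr (adjusted p = 0.0099). Neighbouring levels overlapped at all times in both genotypes. Under quantile normalization Nek7 was called lower in WT at 9 hr (−0.41, adjusted p = 0.0012). In Cpeb4-/- it was then called lower at 6 hr (−0.45, adjusted p = 5.1e-06), and the change of 0.09 at 3 hr turned to −0.17 (adjusted p = 0.030). Its call at 1 hr in Cpeb4-/- was lost (0.13, adjusted p = 0.13).

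The genotypes differed in few of the 10 genes. Casp4 was higher in Cpeb4-/- in untreated cells and at 1, 6 and 9 hr, by 0.68 to 0.98 on the log2 scale, and was not called at 3 hr. Aim2 was lower at 6 hr. No other gene of the 10 was called at any time.

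Of the 10 genes, 1 was higher in untreated Cpeb4-/- cells and none lower, beside 0.741% and 0.565% of all genes tested. After 1 hr the counts were 1 and 0 (0.976% and 0.938%), after 3 hr 0 and 0 (1.81% and 1.87%), after 6 hr 1 and 1 (6.4% and 9.92%), and after 9 hr 1 and 0 (4.69% and 3.22%). The median absolute difference of the 10 genes ran from 0.07 untreated to 0.14 at 1 hr, and that of all genes from 0.09 to 0.16. The genotypes did not overlap in 1 of the 10 genes untreated, then in 1, 0, 3 and 2 of them after 1, 3, 6 and 9 hr of LPS, beside 10.5%, 15.7%, 13.6%, 20.2% and 16.9% of all genes.

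**Figure D4:**
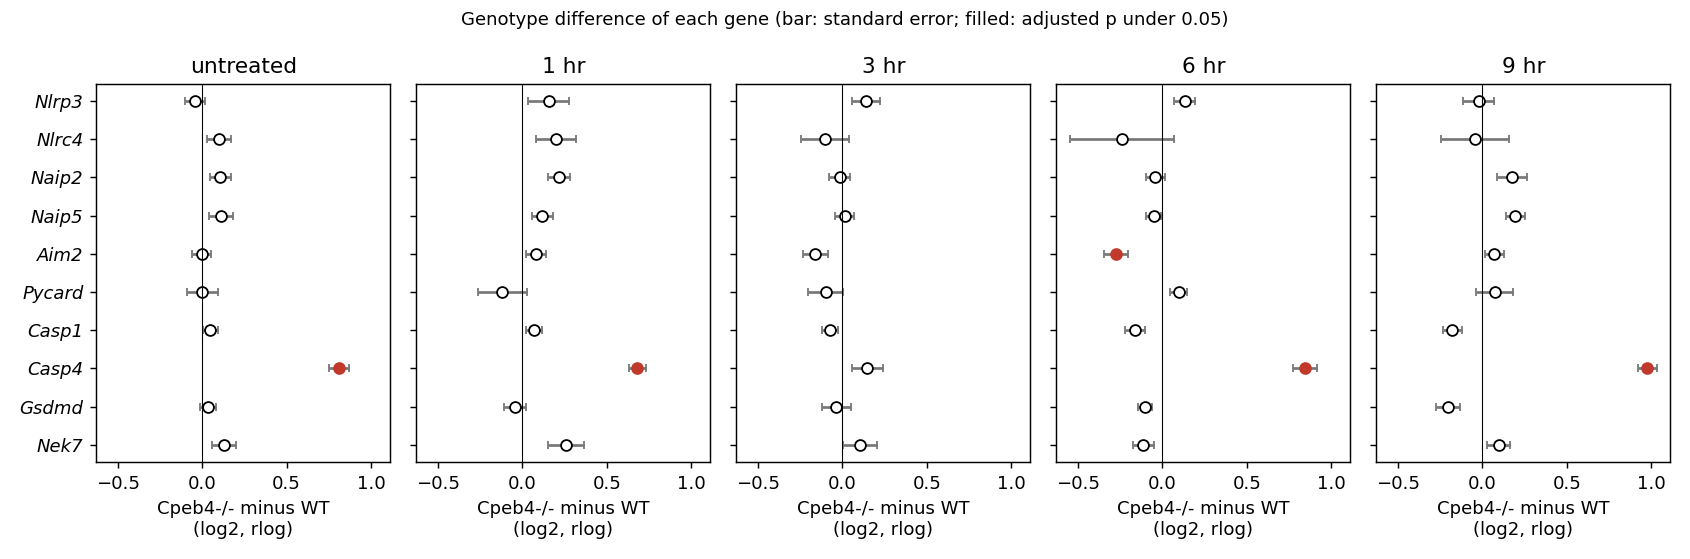
Difference of rlog value (log2 scale), Cpeb4-/- minus WT, of the 10 genes in untreated cells and at 1, 3, 6 and 9 hr of LPS. Points are limma estimates (4 against 4 mice), bars are standard errors and filled points have an adjusted p under 0.05. Casp4 stands 0.68 to 0.98 above 0 at every time but 3 hr, and Aim2 is the other called gene, at 6 hr.

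In untreated cells Casp4 was 9.68, 9.72, 9.55 and 9.65 in the WT mice and 10.58, 10.39, 10.51 and 10.38 in the Cpeb4-/- mice. Every Cpeb4-/- library lay above every WT library. The difference was 0.81 (SE 0.06, adjusted p = 5.6e-05), or 1.76-fold on the rlog scale. At 1 hr the WT values were 11.07, 11.07, 10.95 and 11.00 and the Cpeb4-/- values 11.74, 11.63, 11.77 and 11.69. These groups were again apart, by 0.68 (SE 0.05, adjusted p = 0.00033; 1.60-fold).

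At 3 hr the genotypes met. The WT values were 12.70 and 12.78 in mice 25 and 87 and 12.42 and 12.34 in mice 69 and 88, and the Cpeb4-/- values were 12.80, 12.62, 12.71 and 12.70. The difference was 0.15 (SE 0.09, adjusted p = 0.35), and mice 25 and 87 lay within the Cpeb4-/- range.

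At 6 hr the genotypes separated again. The WT values were 11.96, 12.12, 11.90 and 12.26 and the Cpeb4-/- values 12.95, 12.86, 12.97 and 12.84. No library overlapped, and the difference was 0.84 (SE 0.07, adjusted p = 4.7e-05; 1.80-fold). At 9 hr the WT values were 10.99, 11.07, 10.96 and 10.97 and the Cpeb4-/- values 12.02, 12.02, 12.04 and 11.83, a difference of 0.98 (SE 0.06, adjusted p = 1.7e-05; 1.97-fold).

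The change from untreated cells was compared between genotypes in 1 model of all 40 libraries. For Casp4 the response at 3 hr was smaller in Cpeb4-/- by −0.66 (SE 0.10, adjusted p = 0.0009), and the differences at 1, 6 and 9 hr were −0.13, 0.03 and 0.17 with adjusted p-values of 0.90, 0.92 and 0.61. The rise at 3 hr was 2.68 to 3.22 in the 4 WT mice and 2.20 to 2.32 in the 4 Cpeb4-/- mice, without overlap. Casp4 was the only one of the 10 genes called in this comparison, beside 0.00763% of all genes for 1 hr of LPS, 0.206% for 3 hr, 2.94% for 6 hr and 1.76% for 9 hr. The 2 comparisons of Casp4 share their libraries.

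The difference of Casp4 was seen within both batches. In batch 1 it was 0.71, 0.62, 0.74 and 0.94 untreated and at 1, 6 and 9 hr, and in batch 2 it was 0.91, 0.74, 0.95 and 1.02. It was called at these 4 times under every alternative listed in the closing section, and at 3 hr under none. The genes on either side were looked at after the values of Casp4 were seen. Casp1 differed by 0.05 untreated and −0.18 at 9 hr. Casp12 differed by 0.13 untreated and by 0.13, −0.28, 0.12 and 0.29 at 1, 3, 6 and 9 hr. Casp12 was weakly expressed, with a mean rlog value in WT of 3.65 untreated and 7.02 at 3 hr. The ranges of both genes overlapped between genotypes at all 5 times. Whether Casp4 and Casp12 share a cause was not tested.

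**Figure D5:**
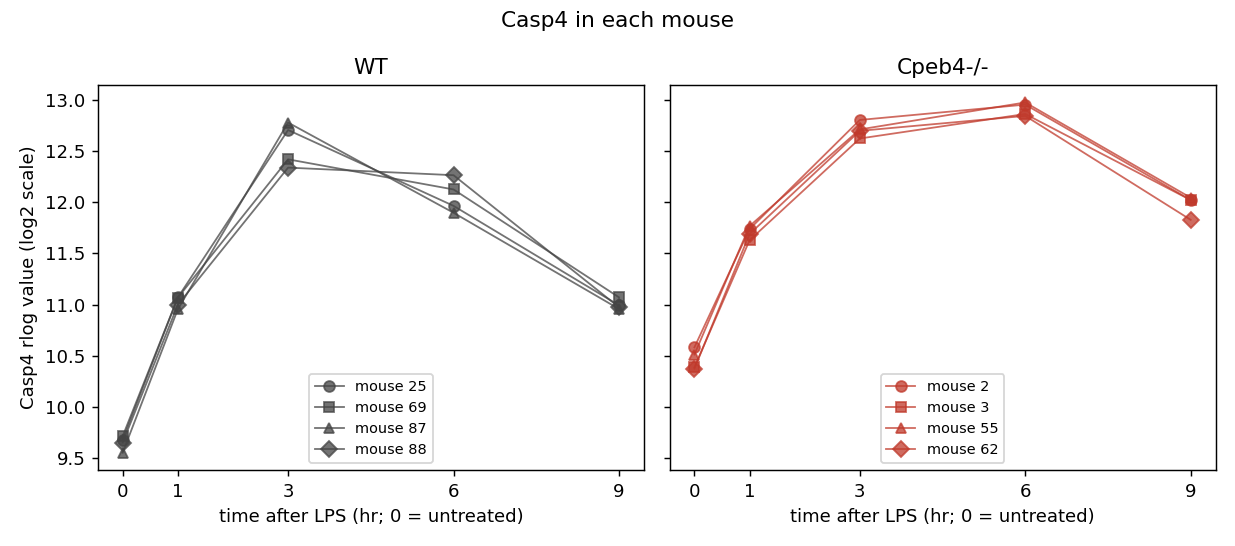
Casp4 rlog value (log2 scale) against time after LPS in hours, 1 line per mouse, WT on the left and Cpeb4-/- on the right. WT mice peak at 3 hr (12.34 to 12.78) and return to 10.96 to 11.07 at 9 hr, whereas Cpeb4-/- mice peak at 6 hr (12.84 to 12.97) and stand at 11.83 to 12.04 at 9 hr.

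Aim2 at 6 hr was 11.70, 11.87, 11.72 and 11.95 in WT and 11.48, 11.60, 11.68 and 11.38 in Cpeb4-/-. All 4 Cpeb4-/- values lay below the WT values, though the nearest of them, 11.70 and 11.68, almost touched. The difference was −0.28 (SE 0.07, adjusted p = 0.019), and it missed the threshold without the filter on low values (adjusted p = 0.10), without the trend of the variance model (0.065), and without Cpeb4-/- mouse 2 (0.059), WT mouse 69 (0.056) or WT mouse 88 (0.054). The response difference at 6 hr was −0.27 (adjusted p = 0.12, and 0.049 with the mouse as a block).

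Casp1 and Gsdmd leaned lower in Cpeb4-/- at the late times. Casp1 at 9 hr was 13.27, 13.45, 13.35 and 13.40 in WT and 13.21, 13.19, 13.28 and 13.08 in Cpeb4-/-, overlapping by 1 library. The difference was −0.18 (adjusted p = 0.081, and 0.0071 with the mouse as a block), and at 6 hr it was −0.16 (0.084, 0.015 with the block, and 0.047 without Cpeb4-/- mouse 55). The response difference of Casp1 was −0.21 at 6 hr and −0.23 at 9 hr, with adjusted p-values of 0.10 and 0.092, and of 0.019 and 0.014 with the block.

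Gsdmd at 9 hr was 13.11, 13.19, 13.09 and 13.06 in WT and 13.10, 12.77, 12.93 and 12.82 in Cpeb4-/-, where mouse 2 lay within the WT range. At 6 hr all 4 Cpeb4-/- values (13.19 to 13.29) lay below the WT values (13.33 to 13.43), by −0.10 on average (adjusted p = 0.10). The difference at 9 hr was −0.20 (adjusted p = 0.10, 0.035 with the mouse as a block, and 0.0030 without mouse 2). Without mouse 2 the differences at 9 hr of Casp1 (adjusted p = 0.029), Naip2 (0.26, 0.0086), Naip5 (0.23, 0.0043) and Nek7 (0.16, 0.023) were called as well.

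Among the other sensors, Naip5 at 9 hr was 0.20 higher in Cpeb4-/- (adjusted p = 0.052, and 0.019 with the block), with every Cpeb4-/- value (10.26 to 10.43) above the WT values (10.11 to 10.19). Naip2 at 1 hr was 0.22 higher (adjusted p = 0.084, 0.019 with the block, and 0.040 without Cpeb4-/- mouse 2). Nlrp3 at 6 hr differed by 0.13 (adjusted p = 0.18), and by 0.23 (0.020) under quantile normalization. Nek7 at 1 hr differed by 0.26 (adjusted p = 0.12, and 0.036 with the block). Pycard differed by −0.12 to 0.10 over the 5 times, with a lowest adjusted p of 0.25.

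Macrophage markers also moved with genotype. Of the 7 markers 4 were lower in Cpeb4-/- at 6 hr, 2 at 9 hr and 1 at 3 hr, beside 9.92%, 3.22% and 1.87% of all genes. None was higher at any time, and 0 were called in untreated cells or after 1 hr. The summed level of the 7 markers, most of it from Lyz2, was lower in Cpeb4-/- without overlap at every time, untreated cells included. On the log2 scale it was 18.88 to 19.21 in untreated WT and 18.55 to 18.82 in untreated Cpeb4-/-. At 6 hr it was 19.02 to 19.15 in WT and 18.71 to 18.94 in Cpeb4-/-. Lyz2, 1 of the 4 called at 6 hr, differed by −0.38 (adjusted p = 0.019), whereas Adgre1 differed by −0.02 and Itgam by 0.11 without a call. The summed T and NK cell markers were 2.54 to 2.77 in untreated WT and 3.36 to 3.60 in untreated Cpeb4-/-, and among them only Klrb1c ranged clearly higher over all libraries, to 3.58 in Cpeb4-/- against 1.56 in WT. The summed stromal markers at 9 hr were 2.93 to 3.47 in WT and 3.56 to 5.59 in Cpeb4-/-. Both lists were too low to be tested between genotypes. Among 3 dendritic cell markers tested 1 was higher in Cpeb4-/- at 3 hr and 1 lower at 6 hr, beside 1.81% and 9.92% of all genes. No neutrophil marker was called between genotypes. The part of these levels in the differences above was not tested, and in these bulk samples fewer cells of a type cannot be told from less RNA per cell.

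Around the 10 genes, 66 further genes of the pathway were listed by role, of which 51 were tested in most comparisons. At 6 hr of LPS in WT 34 of them were higher than in untreated cells and 14 lower, beside 38.7% and 39.2% of all genes. Between genotypes 2 rose and 12 fell in Cpeb4-/- at 6 hr, beside 6.4% and 9.92% of all genes, and the counts for the 9 hr libraries were 4 up and 3 down, beside 4.69% and 3.22%. All 5 substrates and antagonists of interleukin-1 and interleukin-18 rose with LPS at 6 hr in both genotypes. Il1b, chosen here after its values were seen as the best known substrate, rose by 3.84 in WT and differed between genotypes by 0.20 at 6 hr (adjusted p = 0.15).

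The 1 gene of that list called between genotypes was Il18bp, which encodes a soluble binder of interleukin-18, at −0.44 after 3 hr (adjusted p = 0.016), −0.54 after 6 hr (SE 0.11, adjusted p = 0.0074) and −0.38 after 9 hr (adjusted p = 0.026). Among 17 genes that act upstream, 7 were lower and 2 higher in Cpeb4-/- at 6 hr, where 9.92% and 6.4% of all genes were. The 3 with the largest difference were Gbp5, a guanylate-binding protein that acts on bacteria and LPS, at −0.36 (adjusted p = 0.0066), the immunity-related GTPase gene Gm12250 at −0.30 (0.0070), and Sting1, listed as Tmem173, an adaptor of DNA sensing, at −0.28 (0.016), which was also lower at 3 hr (−0.24, 0.039).

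At 9 hr 3 of these 17 were higher and 1 lower, beside 4.69% and 3.22% of all genes. Cd14, which carries LPS to its receptor, was at −0.38 (adjusted p = 0.015), and it was already lower in untreated cells (−0.32, 0.046), at 1 hr (−0.38, 0.013) and at 3 hr (−0.30, 0.046). Txnip, a redox regulator that binds NLRP3, was at 0.33 (adjusted p = 0.0069) after 0.18 at 6 hr (0.0066), and Irf2, a transcription factor that drives Gsdmd, was at 0.33 (0.0043). Of 6 other sensors tested, Zbp1, a sensor of Z-form nucleic acids, was lower at 6 hr (−0.21, adjusted p = 0.010) and 9 hr (−0.21, 0.047), and Nlrp1b, whose near-identical copies make its value uncertain, was higher at 9 hr (0.41, 0.0086). Of 17 modulators 3 were lower at 6 hr, beside 9.92% of all genes. These were the phosphatase gene Ptpn22 at −0.30 (adjusted p = 0.017), the membrane repair gene Chmp4b at −0.15 (0.030) and the kinase gene Ripk1 at −0.15 (0.045). None of 6 other caspases and pore formers was called between genotypes.

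The genes whose rlog values followed each member most closely over the 40 libraries, by Pearson r among 13103 genes, reflect the common LPS course of these libraries and are given as a description. Casp1 was most like Herc6 (0.995), Azi2 (0.995) and Trim30a (0.994), and Gsdmd most like Ifi35 (0.994), Tap2 (0.991) and AW112010 (0.991). Nlrp3 was most like Dusp1 (0.984), Pim1 (0.980) and Zfp131 (0.978), and Aim2 most like Kpna3 (0.986), Wdr43 (0.977) and Zc3h7a (0.976). Casp4 had a looser set, with U2surp (0.961), Mt2 (0.950) and Cav1 (0.945).

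Naip2 was most like Copg1 (0.984), Diaph2 (0.977) and Hk1 (0.976), and Naip5 most like Dclre1c (0.960), Gprasp1 (0.953) and Fbh1 (0.953). Nek7 was closest to Sptbn1 (0.938), Osbpl8 (0.924) and Qk (0.920), and Pycard to Ap1s1 (0.926), Yif1a (0.917) and Rac3 (0.914). Nlrc4 had the weakest likeness, with Fam49b (0.836), Mapkap1 (0.812) and Vti1a (0.807).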

How the data were processed

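Poly(A) RNA of BMDMs from 4 WT and 4 Cpeb4-/- mice at 5 times was sequenced by the authors, aligned with STAR 2.3.0e to mm10 and counted with featureCounts, and the deposited table holds DESeq2 rlog values on a log2 scale, corrected for library size and shrunken at low counts. Reads and counts were not used here. No libraries were identical, and replicates correlated at r = 0.992 to 0.998 over 60 pairs.

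limma 3.58.1 (lmFit, eBayes with trend; R 4.3.3) was fitted to all genes that averaged log2 of 5 or more in the libraries used: the 8 libraries of each time for genotypes, the 20 of a genotype for LPS, and all 40 for response differences. These models replace the study's tests on counts. Tested on simulated data for the comparison of genotypes at 6 hr (13039 genes), the fit recovered 98% of differences of 1 and 72% of those of 0.5 among 200 changed genes. The simulated noise was independent between genes and libraries. Real libraries can shift many genes together, so these shares need not hold for them. Every mouse gave all 5 times. Deviations of its libraries correlated with a median r of 0.29 over 80 pairs, 68 above 0.1, against −0.09 between different mice. The mouse was used as a block in an alternative (statmod 1.5.0). Between genotypes this alternative fitted all 40 libraries in 1 model instead of the 8 of each time. It estimated the correlation between libraries of a mouse and shared the spread over the 5 times. Python 3.11.15, pandas 2.3.3, numpy 2.4.6 and matplotlib 3.10.9 were used.

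All 10 members were named. From each list of further pathway genes, up to 3 called genes with the largest genotype difference at 6 hr and at 9 hr were named, as were the 3 genes most correlated with each member. The members and lists were chosen with earlier results of these data known.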

Additional observations from a re-analysis of the deposited data

Results flagged for a closer look

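In 8 of 110 groups of 4 libraries (10 genes and Cpeb4, 5 times, 2 genotypes), 1 library stood apart from the other 3 by Dixon's limit, where chance gives about 1 in 20 groups. In WT, Nlrc4 of mouse 69 was 8.31 at 6 hr and 8.81 at 9 hr, below the other mice, and Aim2 of mouse 69 was 11.56 at 3 hr against 11.79 to 11.82. WT mouse 88 was high for Naip2 at 3 hr (10.37), Nek7 at 6 hr (11.35) and Cpeb4 at 9 hr (9.41). In Cpeb4-/-, Casp4 of mouse 62 was 11.83 at 9 hr against 12.02 to 12.04, and Gsdmd of mouse 55 was 12.88 at 3 hr against 12.79 to 12.80.

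The response to LPS differed between genotypes in 3 named genes by limma on all 40 libraries. For Casp4 the difference at 3 hr was −0.66 (adjusted p = 0.0009). For Ptpn22 it was −0.40 at 6 hr (adjusted p = 0.035), and for Txnip 0.28 at 9 hr (adjusted p = 0.027).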

How the results depend on the processing

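The alternatives were leaving out a mouse, changing the filter, the variance model or the scaling, adding the batch and blocking on the mouse. Blocking on the mouse between genotypes used 1 model of all 40 libraries. The alternatives gave 860 values of single members, from comparisons where the member was called in the main fit or under at least 1 alternative. Comparisons in which a member was never called were not counted. Of the 860 values all but 6 kept their direction, and 804 kept both direction and side of the threshold. The 6 that reversed did so under quantile normalization: Casp1 at 1 hr in WT (−0.069) and Cpeb4-/- (−0.056), Pycard at 6 hr in WT (−0.052) and at 3 hr in Cpeb4-/- (−0.014), Gsdmd at 1 hr in Cpeb4-/- (−0.19) and Nek7 at 3 hr in Cpeb4-/- (−0.17). Of the 10 genes, the number called between genotypes at 9 hr was 1, and it was 2 with a mean rlog of at least 5, 4 with batch as a covariate, 4 with the mouse as a block, and 1 to 6 without single mice (6 without Cpeb4-/- mouse 2). At 6 hr it was 2, and 1 without the filter or without the trend, where the call of Aim2 was lost, 3 under quantile normalization (with Nlrp3) or with the block (with Casp1), and 1 to 3 without single mice. At 1 hr it was 1, 3 with the block and 1 to 2 without single mice. The response difference called 0 genes of the 10 at 6 and 9 hr, and 2 and 1 with the block, which changed no other call than those given beside the results. The causes were not tested.

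Over all genes the calls between genotypes were 171 untreated (50 without the filter, 414 with the block), 251 at 1 hr (53, 4323, and 146 with batch), 481 at 3 hr (167, 1393, 194 with batch and 230 without the trend), 2129 at 6 hr (1288 without the filter) and 1029 at 9 hr (582, 2378, and 1781 with batch). Without single mice they ranged from 44 to 163, 40 to 2440, 76 to 2584, 1347 to 2331 and 387 to 4575. For the response difference they were 1 at 1 hr (8 without the filter, 0 with a mean rlog of at least 5), 27 at 3 hr (72 with the block), 385 at 6 hr (227 under quantile normalization, 1032 with the block) and 231 at 9 hr (654 with the block), and without single mice 0 to 2, 5 to 21, 84 to 391 and 89 to 226. Depth per library is unknown, and 4 mice a group limit the differences that can be called.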
